A study of Rattus norvegicus with 12 samples.

Results

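The mitochondrial Slc25 carriers are mostly proteins of the inner mitochondrial membrane, and their genes were followed here in skeletal muscle of old rats. Members were all rows of the deposited count table whose symbol is Slc25a followed by a number alone and whose summed count over the 12 libraries was at least 50. This gave 41 genes of 24648 in the table. A further 8 Slc25a symbols fell under the limit. Just inside it were Slc25a43, with a summed count of 77, and Slc25a18, with 123, and just outside it was Slc25a21, with 18. All 41 members passed the filter on low counts and were tested, and 11 of them had a mean under 5 CPM (counts scaled to the size of the library) in both muscle sets.

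The samples were total RNA of skeletal muscle from male rats aged 540 days, born either to control dams or to dams kept on a protein-restricted diet through gestation and lactation (maternal protein restriction). The study took 2 muscles, soleus and extensor digitorum longus, but the labels of the libraries do not say which library is which muscle. The sample numbers in the titles form 2 runs, 3 to 15 (set 1) and 23 to 35 (set 2), each with 3 control and 3 restriction libraries, and libraries are named here by diet and number. Set 1 held control 3, 8 and 9 and restriction 12, 13 and 15. Set 2 held control 23, 28 and 29 and restriction 32, 33 and 35. The labels do not say whether libraries came from separate litters, or whether 1 animal gave a library to each set, so the p-values measure only the spread between these libraries. Muscle and any difference in how the 2 runs of samples were handled cannot be told apart.

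Total counts were 22829692 to 38313704 per library in set 1 and 22869995 to 31342247 in set 2. Summed CPM of 8 slow-fibre marker genes was 91200 to 106000 in set 1 and 1670 to 5460 in set 2, and that of 10 fast-fibre markers was 4060 to 11800 against 147000 to 184000. Set 1 thus carried the transcripts of a slow muscle and set 2 those of a fast muscle. Control 23 stood apart from the other libraries on the second principal component (88 against -23.7 to 19.6). It also had the highest share of mitochondrial tRNA and rRNA rows, at 6.36% of counts. Other cell types also differed between the sets. All 5 macrophage markers were lower in set 2 (summed CPM 123 to 318 against 33.7 to 61.4), as were all 5 fibroblast markers (356 to 553 against 196 to 285) and 4 of 5 adipocyte markers (191 to 274 against 126 to 259). Of 5 endothelial markers 3 were higher and 1 lower (172 to 255 against 205 to 266), and of 5 Schwann cell markers 2 were higher and 1 lower (23.8 to 65 against 45.2 to 98.3). None of the 4 red cell markers passed (421 to 686 against 297 to 1960). No marker was at 0 in all libraries of a set, and the part of these cells in the results below was not tested.

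Slc25 carriers are built from repeated membrane-spanning modules and exchange metabolites between cytosol and matrix. They bring ADP and phosphate in and ATP out, feed citric acid cycle intermediates, amino acids and acylcarnitines into the matrix, and supply cofactors and iron to matrix enzymes. In muscle the adenine nucleotide translocases and the phosphate carrier serve ATP synthase, the aspartate-glutamate and oxoglutarate carriers form the malate-aspartate shuttle for cytosolic NADH, and the carnitine-acylcarnitine carrier admits fatty acids for oxidation. Slow muscle is known for fatty acid oxidation and fast muscle for glycolysis, in which cytosolic NADH must be reoxidised.

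Between the muscle sets, the family moved in both directions. In the mean over diets, 21 of 41 members (51.2%) passed an adjusted p of 0.05 (edgeR quasi-likelihood test, Benjamini-Hochberg over 14225 genes), 9 higher and 12 lower in set 2. Among all genes tested 39.5% passed, 19.9% higher and 19.6% lower. Differences are log2 fold changes of set 2 minus set 1, with their standard errors. The median over members was -0.04, and the median size regardless of sign was 0.56, against 0.46 over all genes. Calls of at least 2-fold were made for 8 members (19.5%), against 17.8% of all genes. The 6 libraries of each set did not overlap for 14 members, 6 higher and 8 lower, where 18.7% of all genes did not overlap, 8.97% higher and 9.77% lower. Members are described by role, since these differences were opposite in sign. In whole muscle, fewer cells of a type and less RNA per cell cannot be told apart.

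**Figure D1:**
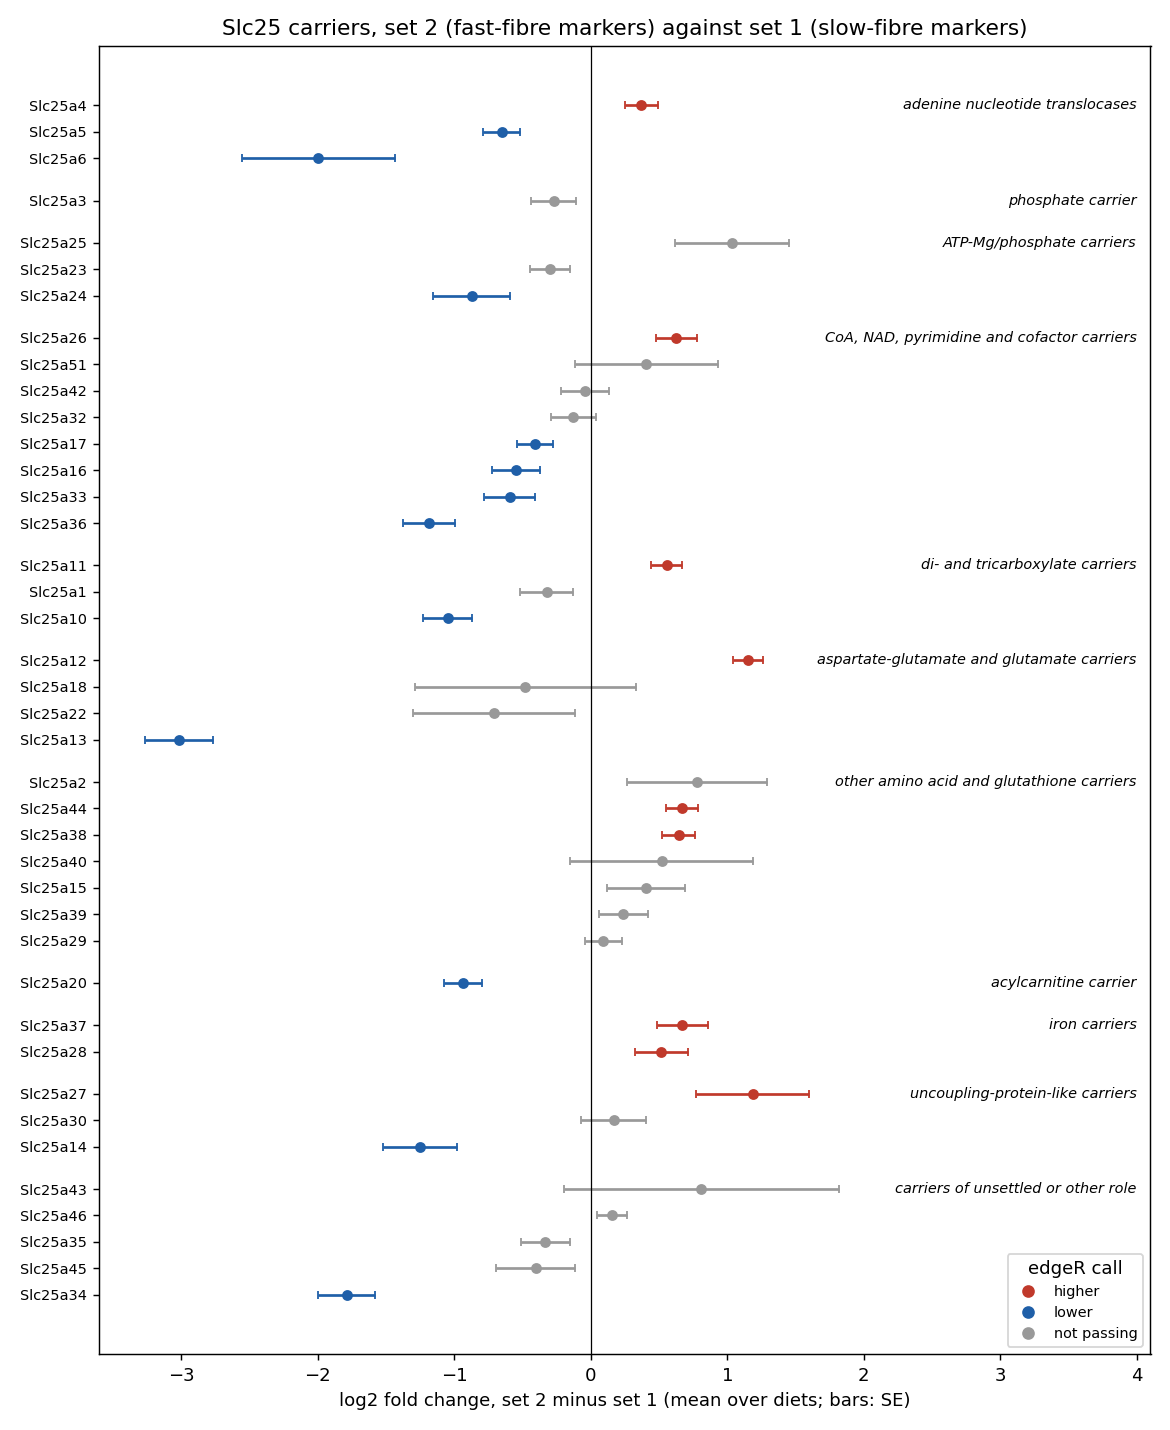
Log2 fold change of the carriers reported here, set 2 minus set 1 in the mean over diets, grouped by role, with bars for the standard error and colour for the edgeR call. Slc25a13 lies lowest at -3.02, Slc25a12 at 1.15 in the same role group is called higher, and grey members did not pass.

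The 3 adenine nucleotide translocases differed in both directions, with 1 higher and 2 lower. Slc25a4, the translocase of heart and muscle that exchanges ADP for ATP, stood at 3394, 4493 and 4871 CPM in set 1 controls, 4614, 3749 and 3710 after restriction, 6029, 5632 and 5613 in set 2 controls and 4843, 5144 and 4887 after restriction. The highest library of set 1 lay just above the lowest of set 2, so the sets overlapped. Slc25a4 was higher in set 2 by 0.37 ± 0.12 (1.29-fold, edgeR adjusted p = 0.024), a call lost without restriction 13, 15 or 33, with values of 0.31 to 0.43 over the 12 fits that each left out a library. Slc25a5, the translocase found in most tissues, went the other way, with 20.6, 22.4 and 29.8 CPM as lowest, median and highest in set 1 and 11.8, 15.5 and 18.6 in set 2, without overlap. Its difference was -0.65 ± 0.14 (edgeR adjusted p = 0.0017). Slc25a6 fell by 1.995 ± 0.56 on the log2 scale (edgeR adjusted p = 0.012) from very low levels. It had 0.571, 0.591 and 1.06 CPM in set 1 controls, 0.397, 0.921 and 0.651 after restriction, 0.0536, 0.186 and 0.2001 in set 2 controls and 0.134, 0.103 and 0.345 after restriction, without overlap. RefSeq lists 9 pseudogenes of Slc25a5, 2 of Slc25a6 and 1 of Slc25a4, so the split of reads among them is uncertain.

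Slc25a4 alone made up 59.8% to 64.7% of the family's counts in set 1 libraries and 66.7% to 71.1% in set 2, with no overlap. All 41 members together took 0.6% to 0.742% of a library's counts in set 1 and 0.676% to 0.809% in set 2. The log2 ratio of Slc25a4 to Slc25a5 within a library was 7.43 ± 0.28 (SD, n = 6) in set 1 and 8.45 ± 0.19 in set 2, a difference of 1.02 (exact permutation test over libraries, two-sided, p = 0.00216, the smallest possible with 6 against 6, and 0.00722 adjusted over the 10 ratios tested). Slc25a5 alone already separated the sets, and both genes were called in opposite directions, so this p is not independent of those calls. Such a ratio compares counts of 2 genes without their lengths, so only its difference between sets is read.

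Slc25a3, which carries phosphate into the matrix for ATP synthesis, took 15.2% to 21.2% of the family's counts in set 1 and 11.4% to 16.8% in set 2. It had 829, 1357 and 1223 CPM in set 1 controls, 1588, 1327 and 1054 after restriction, 1518, 903 and 1052 in set 2 controls and 819.9, 984 and 865.5 after restriction. Control 23 was the highest library of set 2 by a wide margin, and the sets overlapped. The difference of -0.27 ± 0.16 (95% interval -0.62 to 0.08) did not pass (edgeR adjusted p = 0.2). Without control 23 it was -0.40 and passed (edgeR adjusted p = 0.035), and it also passed on library size alone. Of 15 subunits of ATP synthase, which uses both substrates, Atp5f1a was higher (0.64 ± 0.12), Atp5mc2 was lower (-0.59 ± 0.15) and 13 did not pass, with a median of -0.08. None of the 3 outer membrane channel genes passed.

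Of the 3 calcium-regulated ATP-Mg/phosphate carriers, which set the matrix content of adenine nucleotides, 1 passed. Slc25a24 was lower, at 2.99, 3.73 and 2.94 CPM in set 1 controls, 2.86, 5.298 and 4.92 after restriction, 3.54, 2.08 and 1.77 in set 2 controls and 1.11, 1.47 and 2.54 after restriction. The sets overlapped through control 23, and the difference was -0.87 ± 0.28 (edgeR adjusted p = 0.024). This call was lost without control 8, 28 or 29 or restriction 13, 15, 32 or 33, with values of -1.07 to -0.74. Slc25a23 had 106, 71.04 and 73.8 CPM in set 1 controls, 135, 125 and 96.9 after restriction, 98.2, 83.65 and 69.8 in set 2 controls and 67.8, 95.3 and 72.4 after restriction. The sets overlapped, and it did not pass in the mean over diets (-0.30 ± 0.14, edgeR adjusted p = 0.12), though it did without control 23. Slc25a25 spread widely from library to library. It ranged from 13.5 to 107 CPM in set 1 and from 35.3 to 204 in set 2, with control 9 the highest of set 1 and control 29 the highest of set 2. Its difference of 1.04 ± 0.42 (95% interval 0.14 to 1.93) missed the threshold (edgeR adjusted p = 0.063) and passed without control 9 or 23 or restriction 15 or 33, over a range of 0.66 to 1.26. It also passed with no filter on low counts (1.05, edgeR adjusted p = 0.027). With libraries blocked by title numbers that differ by 20, a guessed pairing, it passed as well (0.943, edgeR adjusted p = 2e-04). The log2 ratio of Slc25a25 to Slc25a24 was 3.36 ± 1.30 (SD, n = 6) in set 1 and 5.19 ± 1.09 in set 2, which did not pass after adjustment (exact permutation p = 0.0238, adjusted 0.0595) and passed without control 9 (2.19) or control 23 (2.16), with an adjusted exact permutation p of 0.0216.

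The 9 carriers of coenzyme A, NAD, pyrimidine nucleotides and other cofactors included 1 higher and 4 lower in set 2, while 4 did not pass. Slc25a36, which carries pyrimidine nucleotides, had 54.2, 33.05 and 39.98 CPM in set 1 controls, 32.6, 43.8 and 69.3 after restriction, 19.5, 19.97 and 21.3 in set 2 controls and 14.4, 23.45 and 21.1 after restriction, without overlap. It was lower by 1.19 on the log2 scale (± 0.19, edgeR adjusted p = 2e-04). Slc25a33, also a pyrimidine nucleotide carrier, was lower by a smaller amount (-0.59 ± 0.19, edgeR adjusted p = 0.022), a call lost without control 3 or 28 or restriction 32 or 33 (values of -0.76 to -0.50). Slc25a16, linked to coenzyme A transport, was lower (-0.55 ± 0.17, edgeR adjusted p = 0.022), lost without control 8, 28 or 29 or restriction 15 or 35 (-0.67 to -0.44). Slc25a17, the carrier of the peroxisomal membrane, was lower (-0.41 ± 0.13, edgeR adjusted p = 0.023), lost without control 3 or restriction 13, 33 or 35 (-0.51 to -0.34). Slc25a26, which brings S-adenosylmethionine into the matrix, was the member that was higher, at 6.08 to 9.97 CPM in set 1 and 10.4 to 14.2 in set 2, without overlap (0.63 ± 0.15, edgeR adjusted p = 0.0039). The coenzyme A carrier Slc25a42 had 68.35, 92.9 and 115 CPM in set 1 controls, 100.2, 73.1 and 76.2 after restriction, 56.4, 113 and 93.8 in set 2 controls and 95.3, 69 and 83.6 after restriction. The sets overlapped, and it gave -0.04 ± 0.18. The folate carrier Slc25a32 (-0.13 ± 0.16) and the NAD carrier Slc25a51 (0.41 ± 0.52) did not pass either.

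The clearest opposite pair was that of the aspartate-glutamate carriers, which export aspartate from the matrix in the malate-aspartate shuttle. Slc25a12 (aralar), the form of brain and muscle, had 104, 135 and 122 CPM in set 1 controls, 137, 101 and 112 after restriction, 275, 271 and 257.5 in set 2 controls and 268, 271 and 236 after restriction. Every library of set 2 lay above every library of set 1. Slc25a13 (citrin), the form best known from liver, had 8.77, 10.7 and 10.5 CPM in set 1 controls, 11.7, 7.45 and 9.24 after restriction, 1.29, 1.04 and 1.1 in set 2 controls and 0.70, 1.06 and 2.01 after restriction. Every library of set 2 lay below every library of set 1. Slc25a12 was higher in set 2 by 1.15 ± 0.11 (2.22-fold, edgeR adjusted p = 2e-06) and Slc25a13 was lower by 3.02 on the log2 scale (± 0.25, 8.1-fold, edgeR adjusted p = 5.1e-07). The log2 ratio of Slc25a12 to Slc25a13 lay between 3.53 and 3.75 in all set 1 libraries and between 6.83 and 8.43 in all set 2 libraries. Its mean was 3.60 ± 0.08 (SD, n = 6) in set 1 and 7.76 ± 0.53 in set 2, a difference of 4.16 (exact permutation p = 0.00216, the smallest possible, adjusted 0.00722). Both genes separated the sets without overlap in opposite directions, so this p followed from their values and is no further test. RefSeq lists 1 pseudogene of Slc25a13.

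**Figure D2:**
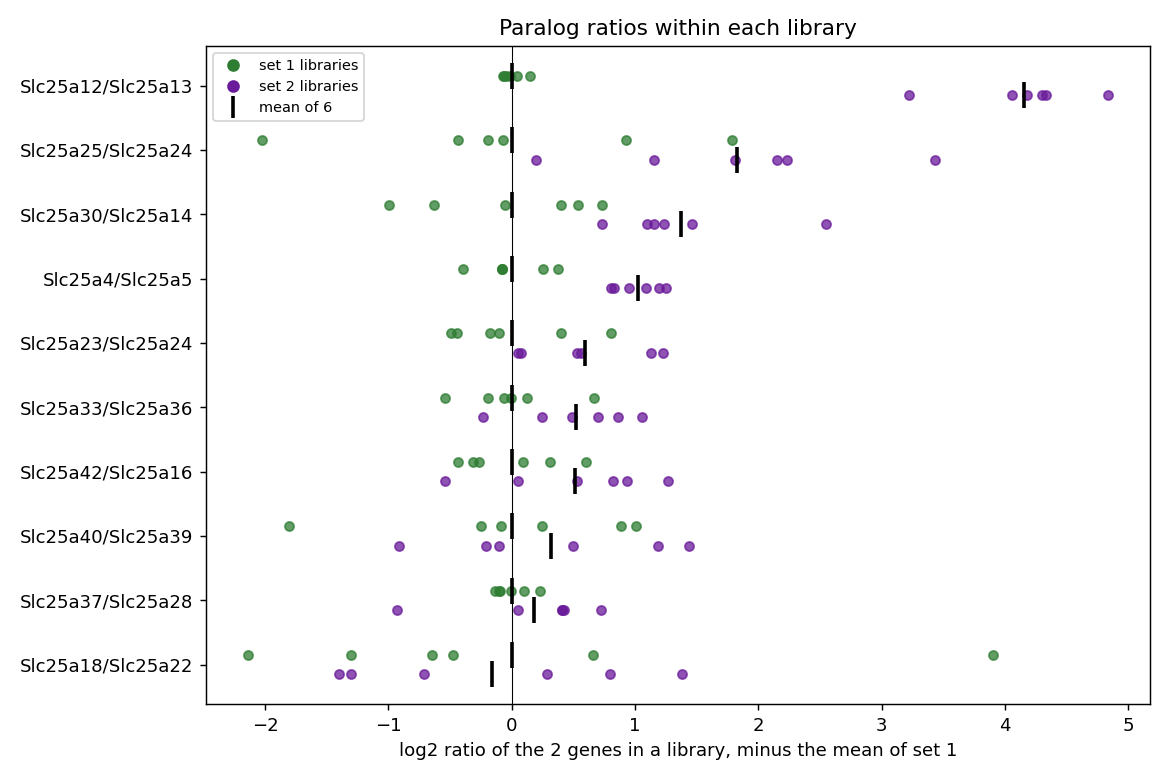
Log2 ratio of 2 related carriers within each library, minus the mean of set 1, for 10 gene pairs, with each point a library and each black bar the mean of 6. The ratio Slc25a12/Slc25a13 separates the sets most, by 4.16, and the ratios Slc25a30/Slc25a14 and Slc25a4/Slc25a5 also reached an adjusted exact permutation p of 0.00722.

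The upstream sequences of the 2 aspartate-glutamate carriers are shown because these genes differed in opposite directions. They are the 250 bases before the annotated start on the gene's strand, from RefSeq (GRCr8), at chr3:76599537-76599786 (minus strand, GC 74%) and chr4:35328361-35328610 (minus strand, GC 66%). The counts were made on another build.
Slc25a12: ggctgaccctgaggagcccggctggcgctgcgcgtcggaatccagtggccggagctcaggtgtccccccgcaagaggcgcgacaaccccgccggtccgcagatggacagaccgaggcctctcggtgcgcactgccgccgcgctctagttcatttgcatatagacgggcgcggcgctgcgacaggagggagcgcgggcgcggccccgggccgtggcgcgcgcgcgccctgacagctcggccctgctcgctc
Slc25a13: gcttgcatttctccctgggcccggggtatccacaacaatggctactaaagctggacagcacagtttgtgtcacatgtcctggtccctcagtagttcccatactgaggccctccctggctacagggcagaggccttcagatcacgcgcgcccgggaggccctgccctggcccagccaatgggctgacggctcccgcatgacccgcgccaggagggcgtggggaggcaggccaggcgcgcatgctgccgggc
Neither window held any of 5 short motifs searched on both strands.

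The motifs were AAGGTCA (a nuclear receptor site), the NRF1 motif (GCGC, any base, TGCGC), TGACGTCA (the cAMP response element), a MEF2 core (CTA, any 4 bases, TAG) and CAGCTG (an E-box of myogenic factors). Windows were listed for 34 of the 41 members. AAGGTCA was in 1 member window (2.94%) and in 3.77% of 27457 RefSeq windows of this length. TGACGTCA was in 2 (5.88%, Slc25a25 and Slc25a33) and in 1.7% of all. CAGCTG was in 4 (11.8%, Slc25a2, Slc25a18, Slc25a24 and Slc25a25) and in 11.9% of all. The NRF1 and MEF2 motifs were in no member window and in 4.17% and 3.43% of all. None of these motifs contains another, and a match is a run of letters only.

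Around the shuttle, Slc25a11, which exchanges oxoglutarate for malate and completes the malate-aspartate cycle, was higher together with Slc25a12. It had 195, 186.5 and 186 CPM in set 1 controls, 222, 178 and 164 after restriction, 290.5, 279 and 287 in set 2 controls and 241.5, 323 and 243 after restriction. All set 2 libraries were above all set 1 libraries, and the difference was 0.56 ± 0.11 (edgeR adjusted p = 0.0012). Of the 4 enzymes of the shuttle listed, cytosolic Got1 was higher (0.54 ± 0.18, edgeR adjusted p = 0.029), cytosolic Mdh1 was lower (-0.62 ± 0.18, adjusted p = 0.013) and 2 did not pass. The call of Got1 was kept in 8 of the 12 fits that each left out a library. Both enzymes of the glycerol phosphate shuttle, the other route for cytosolic NADH, were higher by much more, Gpd1 by 3.82 ± 0.23 and Gpd2 by 2.62 ± 0.23. The glutamate carriers Slc25a18 (0 to 1.59 CPM over both sets) and Slc25a22 (0.12 to 2.70 CPM) were near the limit of detection, with differences of -0.48 ± 0.81 and -0.71 ± 0.59 that did not pass.

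Among the di- and tricarboxylate carriers, Slc25a10, which exchanges malate or succinate for phosphate, was lower. It had 15.2, 8.83 and 12.9 CPM in set 1 controls, 11.5, 11.8 and 13.9 after restriction, 8.05, 5.05 and 6.94 in set 2 controls and 4.43, 6.62 and 4.96 after restriction. The sets did not overlap, and the difference was -1.05 ± 0.18 (edgeR adjusted p = 0.00038). The citrate carrier Slc25a1, at 4.72 to 7.53 CPM in set 1 and 2.98 to 7.56 in set 2, did not pass (-0.32 ± 0.19). Among related carriers outside the family, both subunits of the mitochondrial pyruvate carrier were lower, Mpc1 by 0.82 on the log2 scale (± 0.17) and Mpc2 by 0.56 (± 0.16). Of the sideroflexins, Sfxn5 was higher by 3.36 ± 0.42 and 4 did not pass.

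Slc25a20, which exchanges acylcarnitines for carnitine, was lower in set 2. It had 164, 249.7 and 278 CPM in set 1 controls, 224, 181 and 156 after restriction, 122, 108 and 138 in set 2 controls and 85.6, 100.4 and 101 after restriction. All set 2 libraries lay below all set 1 libraries, by -0.94 ± 0.14 (edgeR adjusted p = 0.00013). Cpt1b, the muscle enzyme that makes acylcarnitines at the outer membrane, was lower as well (-0.74 ± 0.14). Crat, which forms acetylcarnitine, was higher (0.38 ± 0.15, edgeR adjusted p = 0.049). This call was kept in only 2 of the 12 fits that each left out a library and in 5 of 8 other settings. Slc22a5, the carnitine transporter of the cell surface, was also higher (1.28 ± 0.14), while the other 2 genes listed for this route did not pass.

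**Figure D3:**
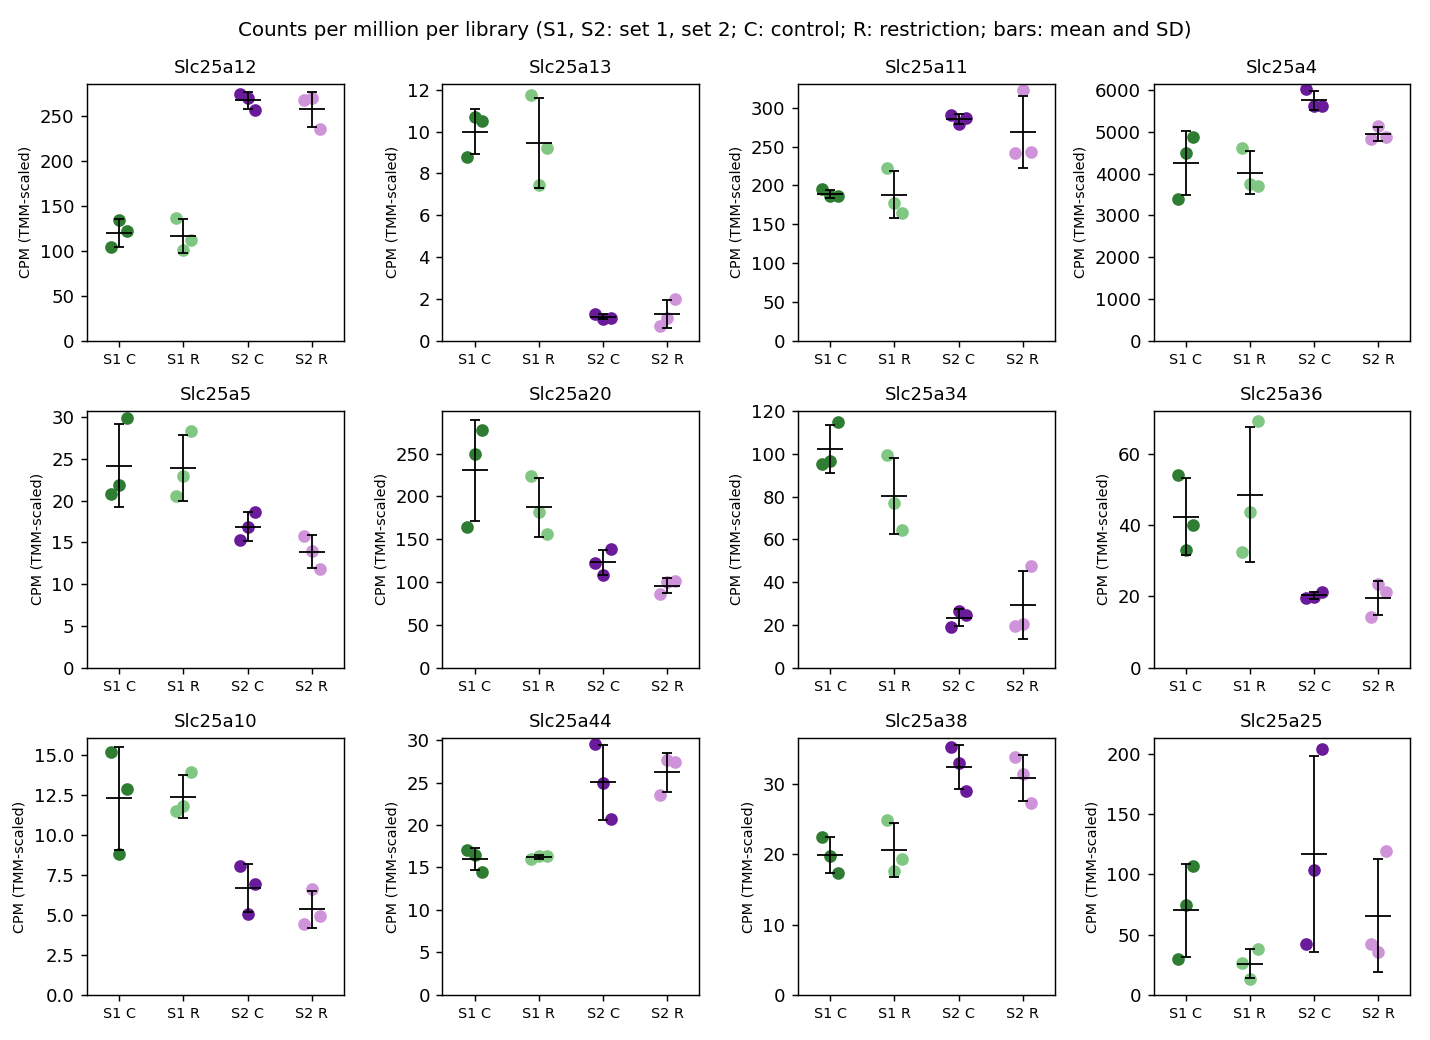
CPM in each of the 12 libraries for 12 carriers, by set (S1, S2) and maternal diet (C, control; R, restriction), with the mean and SD of 3 libraries as bars on axes that start at 0. Slc25a12 and Slc25a11 are higher and Slc25a13, Slc25a34, Slc25a20 and Slc25a36 lower in every S2 library than in every S1 library, and Slc25a25 spreads widely within groups.

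In the mean over diets, all 7 other carriers of amino acids and glutathione had estimates above 0. Of these 2 passed, where 39.5% of all genes did. In control offspring alone 5 were above 0 and 2 below, and on library size alone Slc25a29 turned to -0.017. Slc25a44, which carries branched-chain amino acids, had 17.04, 16.4 and 14.5 CPM in set 1 controls, 15.99, 16.4 and 16.4 after restriction, 29.5, 24.9 and 20.7 in set 2 controls and 23.5, 27.7 and 27.4 after restriction. The sets did not overlap, and it was higher by 0.67 ± 0.12 (edgeR adjusted p = 0.00039). Slc25a38, the glycine carrier needed for haem synthesis, had 17.3 to 25.0 CPM in set 1 and 27.4 to 35.3 in set 2 and was higher by 0.64 ± 0.12 (edgeR adjusted p = 0.00083). The glutathione carrier Slc25a39 had 86.1, 74.1 and 72.9 CPM in set 1 controls, 79.03, 88.6 and 88.1 after restriction, 158, 78.5 and 71.4 in set 2 controls and 67.2, 99.6 and 103 after restriction. The sets overlapped, and it did not pass (0.24 ± 0.18), with a value of 0.002 without control 23, the library at 158 CPM. Its paralog Slc25a40 (0.52 ± 0.67), the ornithine carriers Slc25a15 (0.41 ± 0.29) and Slc25a2 (0.78 ± 0.51) and the basic amino acid carrier Slc25a29 (0.09 ± 0.14) did not pass either. RefSeq lists 8 pseudogenes of Slc25a39.

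Both mitoferrins, which import iron for haem and iron-sulphur clusters, were higher in set 2. Slc25a37 had 4.47, 3.51 and 3.44 CPM in set 1 controls, 2.86, 4.03 and 3.91 after restriction, 4.99, 5.46 and 5.94 in set 2 controls and 5.40, 8.26 and 5.43 after restriction. The sets did not overlap, and the difference was 0.67 ± 0.19 (edgeR adjusted p = 0.011), but it missed the threshold on library size alone, at 0.56 (adjusted p = 0.051). Slc25a28 had 41.5, 51.5 and 66.4 CPM (lowest, median and highest) in set 1 and 56.2, 64.8 and 131 in set 2. The highest value, of control 23, was far above the rest, and the sets overlapped. Its call (0.52 ± 0.20, edgeR adjusted p = 0.048) lay close to the threshold and was kept in only 4 of the 12 fits that each left out a library. It was lost without control 8, 9 or 23 or restriction 12, 13, 15, 33 or 35. Without control 23 the difference was 0.26 (adjusted p = 0.11), the lowest of the 12 fits, and the highest was 0.63.

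The carriers most like the uncoupling proteins were split. Slc25a14 was lower, at 5.95, 3.55 and 3.78 CPM in set 1 controls, 3.49, 8.22 and 8.51 after restriction, 2.36, 2.26 and 2.23 in set 2 controls and 2.08, 3.26 and 1.6 after restriction. The lowest library of set 1 was above the highest of set 2, and the difference was -1.25 ± 0.27 (edgeR adjusted p = 0.0022). Slc25a27 was higher at low counts, with 1.31, 0.702 and 0.238 CPM in set 1 controls, 1.11, 0.921 and 1.06 after restriction, 1.02, 2.97 and 1.37 in set 2 controls and 2.25, 1.82 and 2.604 after restriction, with overlap. Its difference of 1.19 ± 0.41 (edgeR adjusted p = 0.033) was lost without control 8, 9 or 28 or restriction 12, 13, 15, 32 or 35, over a range of 0.90 to 1.54. Slc25a30 did not pass (0.17 ± 0.24). The log2 ratio of Slc25a30 to Slc25a14 was 0.12 ± 0.69 (SD, n = 6) in set 1 and 1.496 ± 0.62 in set 2, a difference of 1.37 (exact permutation p = 0.00216, adjusted 0.00722). The highest ratio of set 1 (0.858) lay just below the lowest of set 2 (0.861). Slc25a14 alone already separated the sets, so this p is not independent of its call. Among family members under other symbols, Ucp3, the uncoupling protein of muscle, was higher (3.19 ± 0.68, edgeR adjusted p = 0.002). It ranged from 16.9 to 187 CPM in set 1 and from 39.6 to 841 in set 2. Ucp2 (-0.89 ± 0.22) and Mtch1, an insertase of the outer membrane (-0.73 ± 0.12), were lower, and Mtch2 did not pass.

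Of the 5 carriers whose substrate is unsettled or that serve another role, 1 passed. Slc25a34 had 95.1, 96.6 and 115 CPM in set 1 controls, 99.4, 77.2 and 64.3 after restriction, 18.8, 26.6 and 24.8 in set 2 controls and 19.7, 20.6 and 47.7 after restriction. Restriction 35 was the highest of set 2 and still below all of set 1. The difference was -1.79 ± 0.21 (3.45-fold, edgeR adjusted p = 1.5e-05), the third largest in size among the 41 members after Slc25a13 and Slc25a6. Its window, on the minus strand of chr5:159219893-159220142 (RefSeq, GRCr8), is shown because it was the member window that held AAGGTCA, marked in capitals as it reads on the opposite strand. The window of Slc25a25, on the minus strand of chr3:36116582-36116831, is shown because it held both CAGCTG and TGACGTCA, marked in capitals.
Slc25a34: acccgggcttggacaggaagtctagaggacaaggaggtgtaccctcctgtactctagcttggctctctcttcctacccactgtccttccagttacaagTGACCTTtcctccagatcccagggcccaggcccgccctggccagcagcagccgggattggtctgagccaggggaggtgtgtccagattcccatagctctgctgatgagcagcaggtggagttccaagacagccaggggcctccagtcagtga
Slc25a25: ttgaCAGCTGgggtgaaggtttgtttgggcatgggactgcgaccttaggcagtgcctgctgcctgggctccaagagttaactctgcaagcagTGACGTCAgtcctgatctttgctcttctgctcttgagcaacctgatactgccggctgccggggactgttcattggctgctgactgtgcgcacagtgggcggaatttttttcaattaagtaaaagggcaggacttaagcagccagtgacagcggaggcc
The related Slc25a35 (-0.33 ± 0.18), Slc25a45 (-0.40 ± 0.29), Slc25a46, which acts in mitochondrial fission (0.16 ± 0.11), and Slc25a43 (0.81 ± 1.00, at 0 to 0.56 CPM) did not pass.

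Genes that work beside the carriers also moved in both directions. Of 9 genes of the machinery that inserts carriers into the inner membrane, Timm29 (0.81 ± 0.10) and Timm8b (0.43 ± 0.12) were higher, Timm10b (-1.04 ± 0.15), Timm8a1 (-0.88 ± 0.19), Agk (-0.74 ± 0.14) and Timm10 (-0.57 ± 0.18) were lower, and 3 did not pass. Of 7 genes of mitochondrial calcium handling, 3 were lower, among them the uniporter pore Mcu (-1.53 ± 0.12) and its regulator Micu2 (-0.41 ± 0.10). Micu3 (1.78 ± 0.26), Letm1 (0.62 ± 0.16) and Smdt1 (0.46 ± 0.10) were higher. Of 21 nuclear respiratory chain subunits 6 were higher, none was lower, and the median was 0.08, where 19.9% of all genes were higher. The diets differed in this. In controls 2 subunits were called higher, and 19 had estimates above 0, with a median of 0.29. After restriction 2 were called higher and 1 lower, with 9 above 0, 12 below and a median of -0.075. Summed CPM of the 21 subunits was 10700 to 14500 in set 1 and 11900 to 17900 in set 2. The highest value was that of control 23. The other libraries of set 2, at 11910 to 13760, lay within the range of set 1. Of the 33 genes called in the lists outside the family, 29 were called in every fit that left out a library. Crat, Got1 and Timm10 were among those that were not.

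Taken separately by diet, the set difference was called for 10 of 41 members in control offspring, 5 higher and 5 lower (24.4%, against 20.8% of all genes, 10.4% in each direction), and for 18 in restriction offspring, 7 higher and 11 lower (43.9%, against 30% of all genes, 15% in each direction). All 10 members called in controls were also called after restriction. These were Slc25a12, Slc25a11, Slc25a26, Slc25a38 and Slc25a44, higher, and Slc25a13, Slc25a34, Slc25a36, Slc25a20 and Slc25a10, lower. The call of Slc25a26 after restriction was weak (0.59 ± 0.21, edgeR adjusted p = 0.047). It was kept in 3 of the 12 fits that each left out a library, and that in controls in 8. Other calls were also lost in some fits. Slc25a10 in controls and Slc25a38 after restriction were kept in 8, and Slc25a11 in 10 in controls and 9 after restriction. Slc25a36, Slc25a38 and Slc25a44 were kept in 11 in controls. Slc25a12, Slc25a13, Slc25a20 and Slc25a34 were kept in all 12 in both diets. Slc25a12 gave 1.15 ± 0.16 in controls and 1.15 ± 0.16 after restriction, and Slc25a13 gave -3.13 ± 0.36 and -2.90 ± 0.35. Slc25a34 gave -2.13 ± 0.30 and -1.45 ± 0.29. A further 8 were called after restriction alone, among them Slc25a15 (1.30 ± 0.41) and Slc25a23 (-0.60 ± 0.20), which were not called in the mean over diets. The test of the difference between the diets in the set effect, given below, called none of them. The counts depended on single libraries. In controls the members called higher fell to 3 without control 8 and 2 without control 9, and those called lower to 3 without control 3. After restriction the members called higher fell to 2 without restriction 13, 15 or 33.

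No member passed the test for maternal diet. In the mean over both sets, 0 of 41 members were called, where 0.00703% of all genes were. DESeq2 and limma-voom called 0 as well. At an unadjusted edgeR p under 0.05 there were 3 of 41 members, 1 higher and 2 lower after restriction. Among all 14225 genes tested there were 1114, with 509 higher and 605 lower. Estimates were above 0 for 14 members and below for 27, with a median of -0.05 against -0.01 over all genes. Within set 1, edgeR called 0 members (0.00703% of all genes) and 5 had an unadjusted p under 0.05, against 1073 of 14225 genes. Within set 2 it called 0 members (0% of all genes) and 2 had such a p, against 1222 of 14225 genes. DESeq2 and limma-voom also called 0 in each set.

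Slc25a30, the carrier of the uncoupling-protein type known from kidney, had the smallest p in the mean over sets. It had 3.23, 5.13 and 3.97 CPM in set 1 controls and 6.39, 13.1 and 5.98 after restriction, and 4.345, 5.38 and 5.535 in set 2 controls and 5.44, 9.91 and 10.6 after restriction. All restriction libraries of set 1 lay above the controls, while in set 2 the groups overlapped. The estimate was 0.90 ± 0.24 (95% interval 0.39 to 1.42, edgeR adjusted p = 0.42), with 1.05 ± 0.34 in set 1 and 0.76 ± 0.34 in set 2. Without restriction 13, the library at 13.1 CPM, the set 1 value was 0.594. Slc25a25 followed with -1.14 ± 0.42 (edgeR adjusted p = 0.54). It had 29.98, 74.4 and 107 CPM in set 1 controls and 26.3, 13.5 and 38.05 after restriction, and 42.6, 104 and 204 in set 2 controls and 42.55, 35.3 and 119.6 after restriction, with overlap in both sets. Slc25a20 (-0.33 ± 0.14), Slc25a1 (-0.40 ± 0.19) and Slc25a29 (-0.27 ± 0.14) completed the 5 smallest p-values and did not pass (edgeR adjusted p of 0.59 to 0.66).

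**Figure D4:**
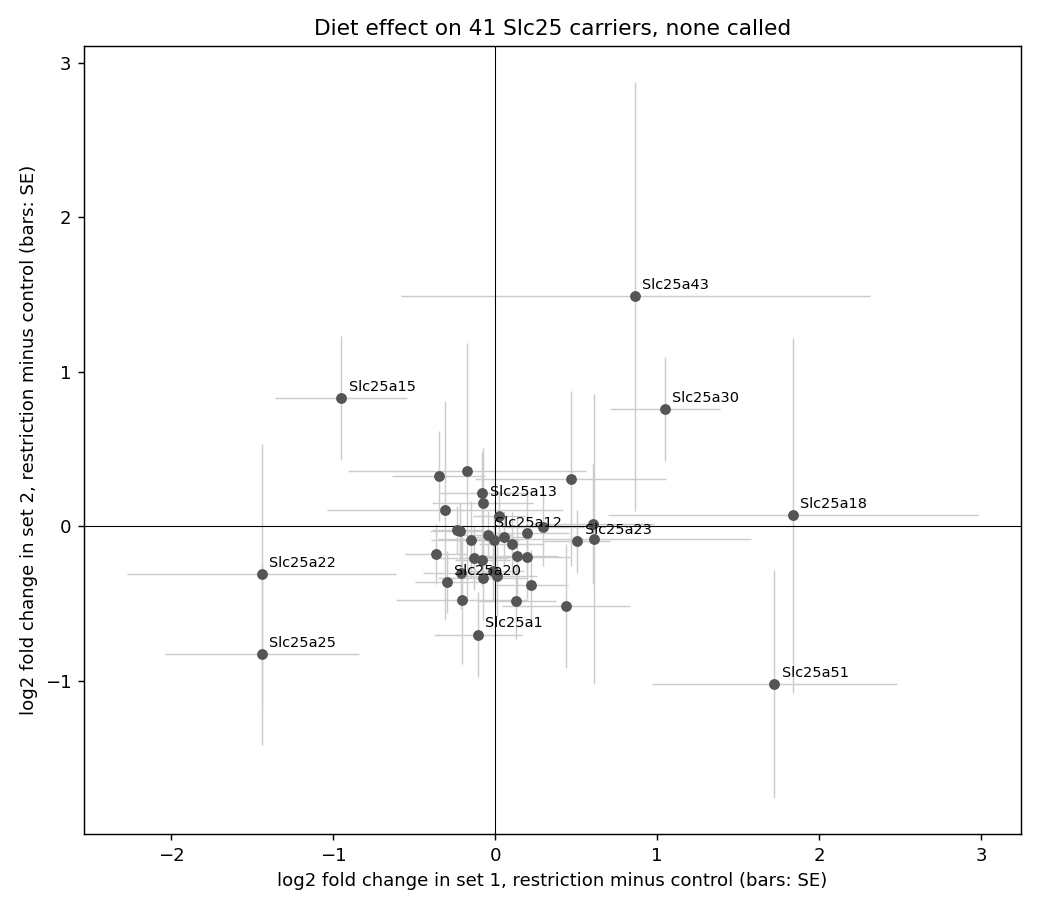
Log2 fold change of restriction minus control for each of the 41 carriers in set 1 (horizontal) and set 2 (vertical), with standard errors as bars and some members named. No point passed the test on either axis. Slc25a30 is above 0 on both axes (1.05 and 0.76), and Slc25a15 and Slc25a51 have opposite signs on the 2 axes.

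Within set 1, the groups did not overlap for 5 members (17.6% of all genes did not overlap, 7.97% higher and 9.6% lower), with Slc25a30 and Slc25a18 higher and Slc25a15, Slc25a29 and Slc25a17 lower after restriction. Slc25a18 was near the limit of detection, with 0.235, 0.074 and 0.291 CPM in controls and 0.317, 0.307 and 1.59 after restriction. Within set 2 the groups did not overlap for 3 members (12.7% of all genes, 7.01% higher and 5.72% lower), with Slc25a1, Slc25a20 and Slc25a4 all lower. With 3 libraries against 3, an exact permutation test of a single value cannot go below 0.1. Slc25a1, the citrate carrier, had 7.56, 5.27 and 4.9 CPM in set 2 controls and 3.66, 2.98 and 4.24 after restriction (-0.70 ± 0.27, edgeR adjusted p = 0.55). Fast-fibre markers (summed CPM 4060 to 7830 in controls, 9470 to 11800 after restriction) and adipocyte markers (242 to 274 and 191 to 202) also did not overlap between the diets in set 1, and red cell markers (602 to 1960 and 297 to 394) did not in set 2. None of these markers passed the test for diet, and their part in the values above was not tested.

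The diet effect did not differ between the sets for any member past the threshold (0 of 41, with 0% of all genes, by edgeR, DESeq2 and limma-voom). At an unadjusted edgeR p under 0.05 there were 2 of 41 members, against 1351 of 14225 genes. Slc25a15, which carries ornithine for the urea cycle and polyamine synthesis, had 3.19, 2.55 and 4.13 CPM in set 1 controls and 2.18, 1.34 and 1.59 after restriction. In set 2 it had 1.29, 3.67 and 2.07 in controls and 3.36, 5.48 and 3.73 after restriction. It was thus at lower values after restriction in set 1 and mostly at higher values in set 2, with a difference between the effects of 1.78 ± 0.57 (edgeR adjusted p = 0.43). Slc25a51, the NAD carrier, gave -2.75 ± 1.06 (edgeR adjusted p = 0.48). It had 1.34, 0.70 and 1.09 CPM in set 1 controls and 1.31, 2.38 and 6.71 after restriction, and 7.78, 0.74 and 2.40 in set 2 controls and 2.25, 2.23 and 0.85 after restriction. Single libraries, restriction 15 and control 23, held its highest values. Without control 23 the difference was -1.555, and limma-voom gave -1.833. The ratio of Slc25a12 to Slc25a13 changed by 0.05 with diet in set 1 and by -0.07 in set 2 (exact permutation p of 0.6 and 0.9).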

How the data were processed

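RNA was sequenced from rat skeletal muscle in 12 samples, 3 libraries per set and diet. The authors deposited raw counts per gene, unnormalized, and per the submitters' processing notes used Trimmomatic, HISAT2, featureCounts and DESeq2 with the Rnor_6.0 build (versions not given in the sources used here). A deposited table of normalized counts equalled the counts times a constant per library and was not used. Symbols were taken as the table gives them.

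Counts were fitted with edgeR 4.0.16 (R 4.3.3) on 4 set and diet groups, with TMM scaling, filterByExpr (14225 genes left), quasi-likelihood tests and Benjamini-Hochberg adjustment over all genes tested. CPM use TMM-scaled library sizes. Paralog ratios are differences of log2 CPM (prior count 2), tested by exact permutation over libraries. Alternatives were DESeq2 1.42.0, limma 3.58.1 (voom), other scalings and filters, leaving out libraries, and a replicate block. The fits were also run on simulated data, but the outcome is not reported here and nothing above rests on it. Replicate libraries differed by more than sampling noise (chi-square per degree of freedom 24.5 to 147), so each was counted once.

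Any member could be named, by role. Values per library go to the called members with the largest changes and to those with the highest mean CPM, and in diet comparisons the 5 smallest p-values are given. Genes outside the family come from fixed lists (174 genes, 157 matched by symbol, 16 by synonym, 1 without a row). Members and lists were chosen with earlier results of these data known. Promoter windows are from RefSeq GRCr8, whose build differs from that of the counts. Gene lengths and proteins were not used here. The values of 1 member and of some listed genes are not reported here.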

Additional observations from a re-analysis of the deposited data

How the results depend on the processing

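No processing alternative reversed a call of the set comparison. Over both diets, the members called were 21 by DESeq2 (all 21 shared), 20 by limma-voom, 20 with DESeq2 size factors in edgeR, 20 on library size alone, 22 with no filter, 19 with a mean CPM of at least 1, 21 without mitochondrial rows and 22 with the replicate block. Slc25a25 was added with no filter (1.053, edgeR adjusted p = 0.027) and with the replicate block (0.943, edgeR adjusted p = 2e-04). Leaving out each library gave 6 to 9 higher and 9 to 15 lower. Library size alone shifted the median of all genes by -0.108 and the split to 6 higher and 14 lower (all genes 2102 and 3384), losing Slc25a27 (1.08), Slc25a28 (0.377) and Slc25a37 (0.559) and adding Slc25a3 (-0.385) and Slc25a23 (-0.417). In controls it left 2 called higher. Slc25a28 was also lost with limma-voom, with DESeq2 size factors and with the CPM filter, which left Slc25a6 untested. In the main fit, leaving out a library gave 2 to 5 higher and 3 to 6 lower in controls, and 2 to 7 higher and 8 to 12 lower after restriction. Without control 23, Slc25a3 (-0.404), Slc25a23 (-0.372), Slc25a25 (1.224) and Slc25a35 (-0.468) were also called. Diet comparisons called 0 members throughout. Direction was kept in 1746 of 1754 values of single members and 146 of 150 ratios.

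Among the values reported, the sign changed only in some that were not called. On library size alone Slc25a29 was -0.017. Over the 12 fits that each left out a library, Slc25a18 ranged from -0.992 to 0.149, Slc25a42 from -0.15 to 0.067, Slc25a43 from -1.763 to 1.686 and Slc25a51 from -0.197 to 0.879. Among the ratios, Slc25a40/Slc25a39 ranged from -0.046 to 0.562 and Slc25a18/Slc25a22 from -0.586 to 0.622. The ratios Slc25a37/Slc25a28 (0.074 to 0.405), Slc25a25/Slc25a24 (1.425 to 2.187) and Slc25a33/Slc25a36 (0.413 to 0.672) each passed when 1 library was left out, control 23, control 9 or 23, and restriction 33. The cause of these changes was not tested.

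Title numbers that differ by 20 were taken as a pairing by guess. Deviations of such libraries correlated at 0.079 to 0.175. Each library of set 1 matched its own number best among the set 2 libraries of its diet. The labels do not say whether these libraries are pairs. The main tests took all libraries as separate and would ignore such a pairing. With this replicate block the ratios Slc25a4/Slc25a5 (1.021), Slc25a12/Slc25a13 (4.155) and Slc25a30/Slc25a14 (1.372) had an exact sign-flip p of 0.0312, the smallest possible, and 0.0781 adjusted. Members with few counts are limited by depth.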
